A study of Mus musculus with 6 samples.

Results

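The 4 Janus kinases (Jak1, Jak2, Jak3 and Tyk2) and 6 inhibitors of the suppressor of cytokine signalling family (Cish, Socs1, Socs2, Socs3, Socs4 and Socs7) were followed in natural killer (NK) cells from mice given IL-15 or IL-2. These 10 genes were taken by symbol from the 24343 genes of the deposited tables, and all 10 were present. RNA was sequenced from splenic NK cells of female C57BL/6 mice; the sort took cells bearing the NK receptors NK1.1 and NKp46 and left out those that stained for CD3 or a CD1d tetramer. There were 3 libraries from mice treated with an IL-15 cytokine complex (IL-15C) and 3 from mice treated with an IL-2 cytokine complex (IL-2C). Both groups were therefore cytokine treated, and each difference is between 2 treatments, not against resting cells; the labels used here give no dose, time after treatment or age.

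Janus kinases are tyrosine kinases that sit on the cytoplasmic tails of cytokine receptors, where they phosphorylate the receptor and the STAT transcription factors. The receptors for IL-2 and IL-15 share the beta chain, which carries JAK1, and the common gamma chain, which carries JAK3, and in NK cells they signal mainly through STAT5. STAT5 switches on Cish and several Socs genes, whose proteins bind the activated receptor or kinase and recruit a ubiquitin ligase through their SOCS box, which makes these inhibitors a negative feedback loop. CIS, the product of Cish, is known in mouse NK cells as a brake on IL-15 signalling.

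Levels are given in FPKM, fragments per kilobase of transcript scaled to the number of mapped fragments, which can be compared between genes because it is per length. The intervals deposited with the values implied 23526390 to 24566627 fragments per library in IL-15C and 23648489 to 27212327 in IL-2C. These totals include genes such as Jak1, whose interval does not follow the number of fragments (below), so they are not library depths. Markers of the sort were high in all 6 libraries, with Ncr1 (NKp46) at 755 to 832 FPKM and Klrb1c (NK1.1) at 507 to 557. Cd4 reached no more than 0.0333 FPKM and Cd8a 0.0767, while the CD3 chain genes were detected in all 6 libraries, Cd3g at 30.7 to 44.6, Cd3d at 15.3 to 22.3 and Cd3e at 3.40 to 5.70. IL-15C replicate 1 stood apart in several of the values below. It held the highest summed level of 6 T cell markers (71.8 FPKM, against 50.6 to 58.1 in the other 5 libraries), of 6 granulocyte and monocyte markers (116 FPKM, against 45.0 to 70.9) and of 5 erythroid markers (21.5 FPKM, against 1.11 to 3.65). Taken singly, 3 of these T cell, 4 of these granulocyte and monocyte and 4 of these erythroid markers were highest in IL-15C replicate 1. The T cell markers Cd3e, Cd4 and Cd5 were highest in IL-2C replicate 2. The sum of 7 B cell markers was highest in IL-2C replicate 2, at 53.3 FPKM, and ran from 6.25 to 34.4 in IL-15C and from 12.2 to 53.3 in IL-2C. No marker of these lists was at 0 in all 6 libraries, and 0 of the tested markers passed the test described below.

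The sequence just upstream of the RefSeq start (GRCm38.p6, the same assembly as mm10) was in the reference table for 8 of the 10 genes and is shown for Jak3, the kinase that differed between treatments, and for Socs1 and Socs3, a pair of inhibitors that were highest in the same library. Each is printed 5′ to 3′ on the strand of the gene, as far as it is free of annotated exons, on chr8:71676133-71676295 (+), chr16:10785537-10785786 (-) and chr11:117969452-117969616 (-). Capitals mark a match to TTCNNNGAA, the palindrome that STAT dimers bind, which reads alike on both strands.
Jak3: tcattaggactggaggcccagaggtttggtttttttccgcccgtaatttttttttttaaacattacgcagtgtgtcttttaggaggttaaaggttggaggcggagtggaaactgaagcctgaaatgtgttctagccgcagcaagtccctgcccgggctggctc
Socs1: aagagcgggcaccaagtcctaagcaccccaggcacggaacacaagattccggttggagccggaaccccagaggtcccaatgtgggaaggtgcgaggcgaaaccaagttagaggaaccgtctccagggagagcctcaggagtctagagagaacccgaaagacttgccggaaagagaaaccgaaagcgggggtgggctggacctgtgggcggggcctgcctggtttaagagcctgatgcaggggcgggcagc
Socs3: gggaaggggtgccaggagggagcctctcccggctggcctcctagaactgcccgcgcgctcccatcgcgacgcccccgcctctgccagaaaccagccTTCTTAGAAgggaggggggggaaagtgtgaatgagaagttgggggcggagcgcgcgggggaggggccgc
In the 250 bases upstream of the start, the Socs3 window held 1 match to TTCNNNGAA, TTCTTAGAA at 117969512 to 117969520, and the other 7 windows held none. The windows of Cish and Socs4 begin inside annotated exons, so for these genes the window is not upstream sequence alone. Those of Jak1, Jak3 and Socs3 run into annotated exons after 191, 163 and 165 bases, and the Socs3 match lies before that point. Of 32851 such mouse windows, 7.02% hold TTCNNNGAA. A match describes these letters and is not a bound site.

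The kinases were expressed at very unequal levels. Over the 6 libraries Jak1 averaged 379 FPKM, Tyk2 85.0, Jak3 58.1 and Jak2 30.3, and each gene stood above the next in all 6 libraries with no overlap of the ranges. Jak1 was thus 4.46-fold above Tyk2, and its level was higher than that of 98.6% of the tested genes. All 6 inhibitors lay below the lowest kinase in each library. Socs4 averaged 22.8 FPKM, Socs7 8.19, Socs1 7.68, Socs3 4.50, Cish 3.00 and Socs2 1.56. Neighbours in this order overlapped in range in 2 places. Socs7 lay above Socs1 in 5 of 6 libraries and Socs3 above Cish in 5 of 6, and in both pairs the exception was IL-15C replicate 1.

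**Figure D1:**
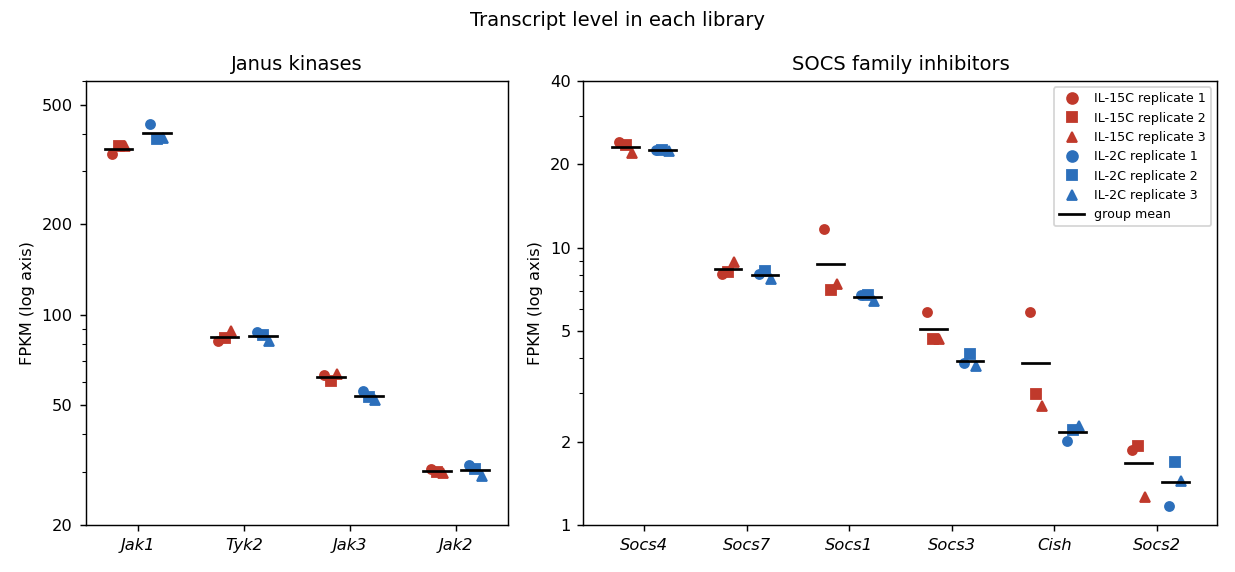
FPKM (log axis) of each Janus kinase (left) and each SOCS family inhibitor (right) in the 3 IL-15C libraries (red) and the 3 IL-2C libraries (blue); symbols mark the replicate and black lines the group means. Jak3 is separated between the groups at 60.3 to 63.5 in IL-15C against 52.3 to 55.9 FPKM in IL-2C, and the red circles of Socs1, Socs3 and Cish (IL-15C replicate 1) lie above all other points of those genes.

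Of the 4 kinases, 1 was higher in IL-15C cells, 0 were lower and 3 did not pass the test, which was limma's moderated test on log2(FPKM + 1) with adjustment over all genes. Over all 9831 genes tested, 6.44% passed, 1.72% as higher (169 genes) and 4.72% as lower (464 genes). This split depends on how the libraries are scaled: with each brought to a common median, 325 genes were higher and 207 lower. The shares of tested genes given below, also those of groups that did not overlap, are for the deposited scaling unless another is named. The median log2 change was -0.01 over the 4 kinases (0.03 after scaling to a common median) and -0.04 over all tested genes.

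The kinase that rose was Jak3, the partner of the common gamma chain, at chromosome 8, 71676383 to 71690577 in mm10. It had 63.1, 60.3 and 63.5 FPKM in the IL-15C libraries, against 55.9, 53.4 and 52.3 FPKM in the IL-2C libraries. The groups did not overlap, with IL-15C above, which held for 8.15% of the tested genes. No library of either group stood apart from its own group. The means were 62.3 ± 1.73 in IL-15C and 53.8 ± 1.87 in IL-2C (SD, n = 3 each), a ratio of 1.16. The log2 change was 0.21 ± 0.04 (SE), with a 95% interval of 0.11 to 0.31 and a limma adjusted p of 0.0316. The call held without IL-15C replicate 1 (adjusted p = 0.0427 in limma) and was lost when any of the other 5 libraries was left out, with adjusted p between 0.0648 and 0.119 in limma and log2 changes between 0.19 and 0.23. Over all 16 alternatives the limma adjusted p of Jak3 ran from 0.0068 to 0.129 and was past the threshold in 10. The last exon of Jak3 is shared with the hormone gene Insl3 over 404 bases in GENCODE, so fragments there could belong to either gene; Insl3 was listed at 1.22 to 2.13 FPKM.

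Jak1, which binds the beta chain, went the other way without passing the test. It had 343, 364 and 365 FPKM in IL-15C, against 433, 385 and 387 FPKM in IL-2C. The groups did not overlap, as was the case with IL-2C above for 25.1% of the tested genes, and IL-2C replicate 1 was the highest library. The log2 change was -0.17 ± 0.06 (limma adjusted p = 0.126), and the mean ratio of 0.891 was 0.927 without IL-2C replicate 1. After quantile normalization of the libraries Jak1 passed the test, at -0.16 with an adjusted p of 0.0426 in limma; over all alternatives its adjusted p ran from 0.0426 to 0.377. The deposited interval of Jak1 was 4.17% to 4.19% of the value to either side in every library although its level varied, so for this gene the interval does not follow the number of fragments.

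Jak2 and Tyk2, which serve receptors such as those for interferon gamma, IL-12 and type I interferon, were nearly level. Jak2 had 30.7, 30.1 and 29.7 FPKM in IL-15C, against 31.7, 30.7 and 29.1 in IL-2C. Tyk2 had 81.6, 83.9 and 88.4 FPKM in IL-15C, against 88.0, 86.0 and 82.0 in IL-2C. In both genes the groups overlapped. The 95% intervals of the log2 change ran from -0.11 to 0.08 for Jak2 and from -0.12 to 0.10 for Tyk2, around estimates of -0.01 and -0.01 whose sign changed to positive under the 3 other scalings of the libraries.

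Because a ratio of 2 genes within a library is free of library scaling, the balance between the kinases was also read that way, as a description. Jak3 per Jak1 was 0.184, 0.165 and 0.174 in IL-15C, against 0.129, 0.139 and 0.135 in IL-2C, so that the mean ratio was 1.30-fold higher in IL-15C. Jak3 per Tyk2 was 0.773, 0.719 and 0.718 in IL-15C, against 0.635, 0.621 and 0.637 in IL-2C. Jak3 per Jak2 was 2.06, 2.00 and 2.13 in IL-15C, against 1.76, 1.74 and 1.80 in IL-2C. In all 3 ratios the groups did not overlap. These ratios share Jak3, whose own groups did not overlap, so they are not separate results. Of the summed FPKM of the 4 kinases, Jak3 made up 11.7% ± 0.494 in IL-15C and 9.44% ± 0.226 in IL-2C, while Jak1 made up 66.9% ± 0.753 in IL-15C and 70.3% ± 0.899 in IL-2C (SD, n = 3 each).

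**Figure D2:**
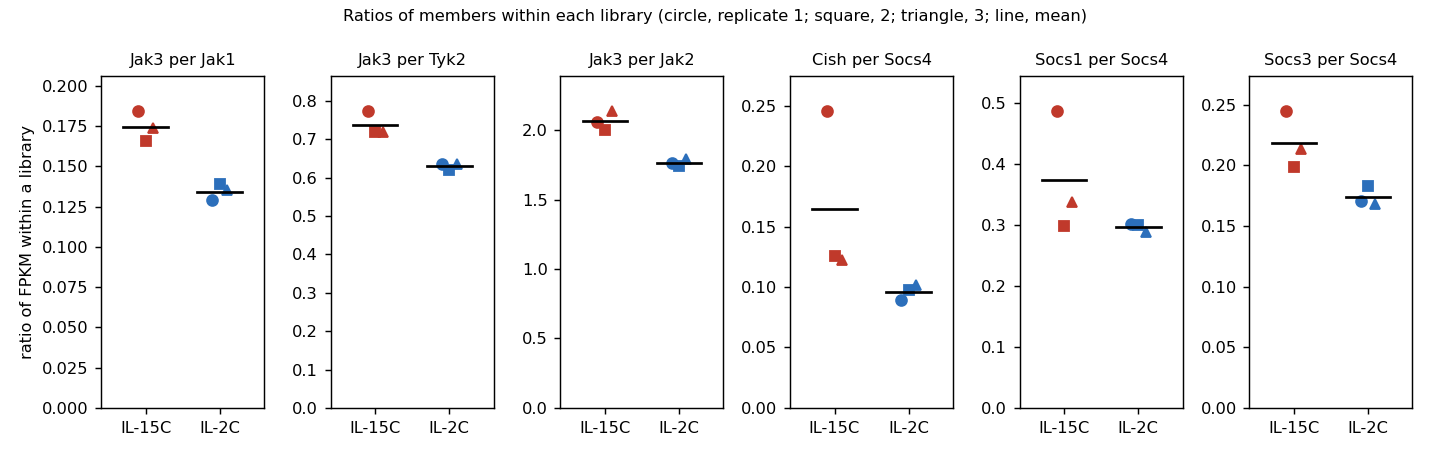
Ratio of the FPKM of 2 genes within each library, for IL-15C (red) and IL-2C (blue); symbols mark the replicate, lines the group means, and each axis starts at 0. Jak3 relative to each of the other kinases is separated between the groups. So are Cish per Socs4, at 0.245, 0.126 and 0.122 in IL-15C against 0.0894, 0.0975 and 0.101 in IL-2C, and Socs3 per Socs4. The latter had 0.244, 0.198 and 0.214 in IL-15C, against 0.170, 0.183 and 0.168 in IL-2C. In both, IL-15C replicate 1 is highest. Socs1 relative to Socs4 overlaps, at 0.298 to 0.486 in IL-15C and 0.288 to 0.301 in IL-2C.

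Of the 6 inhibitors, 0 passed limma's test at an adjusted p under 0.05. At an unadjusted p under 0.05 there were 2, Cish and Socs3, both higher in IL-15C; over all tested genes 6.48% were higher at that level, 20.4% were lower and 26.9% were either. All 6 estimates were above 0, against 35.3% of all tested genes, and the median log2 change was 0.22, against -0.04. Without IL-15C replicate 1 the median of the 6 was 0.09, and with array weights it was 0.10. After scaling to a common median all 6 were again above 0, against 50.2% of all tested genes. In 3 of the 6 (Cish, Socs1 and Socs3) the groups did not overlap, with IL-15C above, which held for 8.15% of the tested genes. The summed FPKM of the 6 was 57.4, 48.3 and 46.9 in IL-15C, against 44.3, 45.6 and 44.0 in IL-2C. The first of these values belongs to IL-15C replicate 1, and the sums of the other IL-15C libraries were nearer to IL-2C than to it.

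Cish, at chromosome 9, 107296689 to 107301961, showed the widest gap of the 10 genes. It had 5.89, 2.96 and 2.68 FPKM in IL-15C, against 2.01, 2.20 and 2.27 FPKM in IL-2C. IL-15C replicate 1 was 2.09-fold above the mean of the other IL-15C libraries, which still lay above all of IL-2C. The means were 3.84 ± 1.78 in IL-15C and 2.16 ± 0.136 in IL-2C (SD, n = 3 each), a ratio of 1.78 that was 1.31 without IL-15C replicate 1. The log2 change was 0.56 ± 0.20 and did not pass (limma adjusted p = 0.110). Without IL-15C replicate 1 it was smaller, at 0.27, and passed (limma adjusted p = 0.0472). That was the 1 call among 15 alternatives, whose limma adjusted p ran from 0.0472 to 0.520. The deposited intervals implied 558, 297 and 271 fragments in IL-15C, against 186, 241 and 260 in IL-2C.

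Socs1 and Socs3 encode the inhibitors that block kinase activity directly through a kinase inhibitory region. Socs1, at chromosome 16, 10783809 to 10785536, had 11.7, 7.03 and 7.43 FPKM in IL-15C, against 6.77, 6.78 and 6.44 in IL-2C. The gap came mostly from IL-15C replicate 1, 1.61-fold above the mean of its group's other libraries, although the groups did not overlap. Its log2 change was 0.31 ± 0.14 (limma adjusted p = 0.202), and the ratio of means of 1.31 was 1.09 without that library, when the log2 change was 0.10. Socs3, at chromosome 11, 117966087 to 117969366, had 5.87, 4.67 and 4.70 FPKM in IL-15C, against 3.83, 4.15 and 3.76 in IL-2C. All 3 IL-15C libraries were above all of IL-2C, and IL-15C replicate 1 was again the highest. The log2 change was 0.30 ± 0.08 (limma adjusted p = 0.0540), and without IL-15C replicate 1 it was 0.21 (adjusted p = 0.0592 in limma). Socs3 passed in limma after scaling to a common median (0.34, adjusted p = 0.0349), after quantile normalization (0.35, adjusted p = 0.0334) and with array weights (0.21, adjusted p = 0.0374), and its adjusted p over 15 alternatives ran from 0.0334 to 0.283. The implied fragments of Socs3 were 750, 623 and 629 in IL-15C, against 476, 616 and 568 in IL-2C.

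The other inhibitors gave overlapping groups. Socs2, which restrains growth hormone signalling, was the lowest of the 10 genes and rested on 87 to 158 implied fragments per library. It had 1.86, 1.92 and 1.26 FPKM in IL-15C, against 1.17, 1.69 and 1.44 in IL-2C, and a log2 change of 0.14 with a 95% interval of -0.12 to 0.40. Socs4, described as an inhibitor of epidermal growth factor receptor signalling, had 24.0, 23.6 and 22.0 FPKM in IL-15C, against 22.5, 22.6 and 22.4 in IL-2C. Its interval ran from -0.06 to 0.14. Socs7 had 8.07, 8.20 and 8.86 FPKM in IL-15C, against 8.08, 8.22 and 7.72 in IL-2C, with an interval of -0.06 to 0.17. The most abundant inhibitors, Socs4 and Socs7, were thus the ones with the narrowest intervals around small changes. An exact two-sided permutation test of the FPKM values gave p = 0.1 for Jak1, Jak3, Cish, Socs1 and Socs3, the smallest that 3 against 3 libraries allow, and 0.4 to 0.8 for the other 5 genes.

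**Figure D3:**
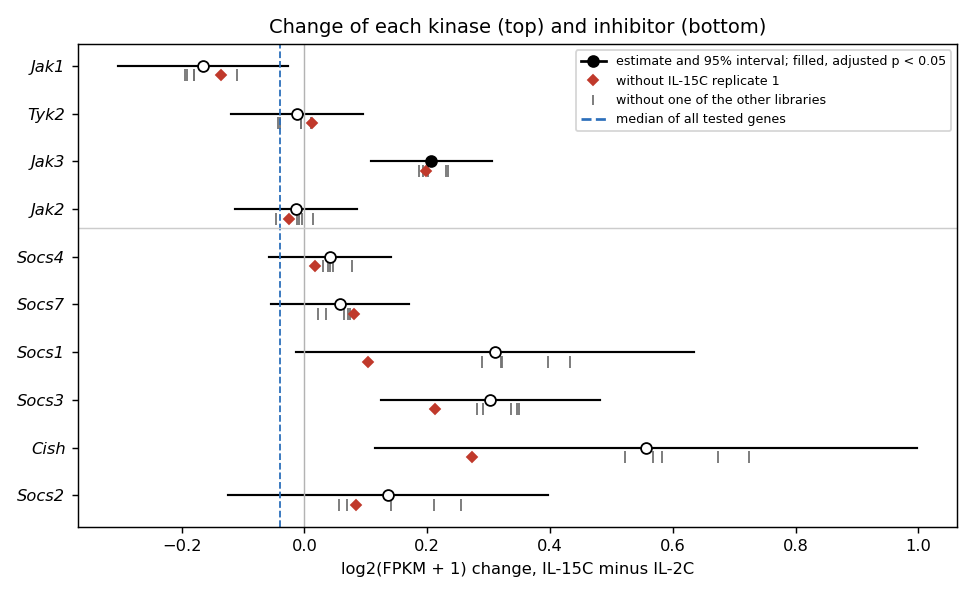
Log2(FPKM + 1) change of each gene, IL-15C minus IL-2C, with its 95% interval (limma); filled circles passed at an adjusted p under 0.05, and the marks below each line show the estimate with a single library left out. Jak3 is the only filled circle, and leaving out IL-15C replicate 1 (red diamonds) moves Cish to 0.27 and Socs1 to 0.10.

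The inhibitors tended to share their highest library. Of the 6, 4 (Cish, Socs1, Socs3 and Socs4) peaked in IL-15C replicate 1, as did 0 of the 4 kinases and 2462 of the 9831 tested genes. Among the other genes of the pathway, 5 of 7 tested gamma-chain receptor and ligand genes and 6 of 10 tested STAT5 target genes also peaked there. So did 3 of 5 partners of the SOCS box ubiquitin ligase and 4 of 9 tested genes for other receptors. Of the other inhibitors of the pathway 3 of 10 peaked there, and of the STAT genes 2 of 7. The STAT5 targets Mcl1, Id2 and Myc peaked in IL-2C libraries. Pim2, a STAT5-induced kinase gene singled out after its values were seen, had 49.3, 17.1 and 16.7 FPKM in IL-15C, against 18.8, 17.9 and 18.4 in IL-2C. Il2ra, the inducible IL-2 receptor alpha chain and itself a STAT5 target, was below the 1 FPKM filter, with 1.33, 0.750 and 0.465 FPKM in IL-15C, against 0.376, 0.462 and 0.558 in IL-2C. It was listed with the receptors and, like Pim2, is named outside the rule given below. Lta, the gene of the STAT5 target list below the filter, was highest in IL-2C replicate 2, at 0.829 FPKM, against 0.816 in IL-15C replicate 1. The granulocyte, T cell and erythroid marker sums that were highest in IL-15C replicate 1 are given above. The part of such cells in the level of the inhibitors was not tested. In bulk samples more cells of a type and more RNA per cell cannot be told apart.

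**Figure D4:**
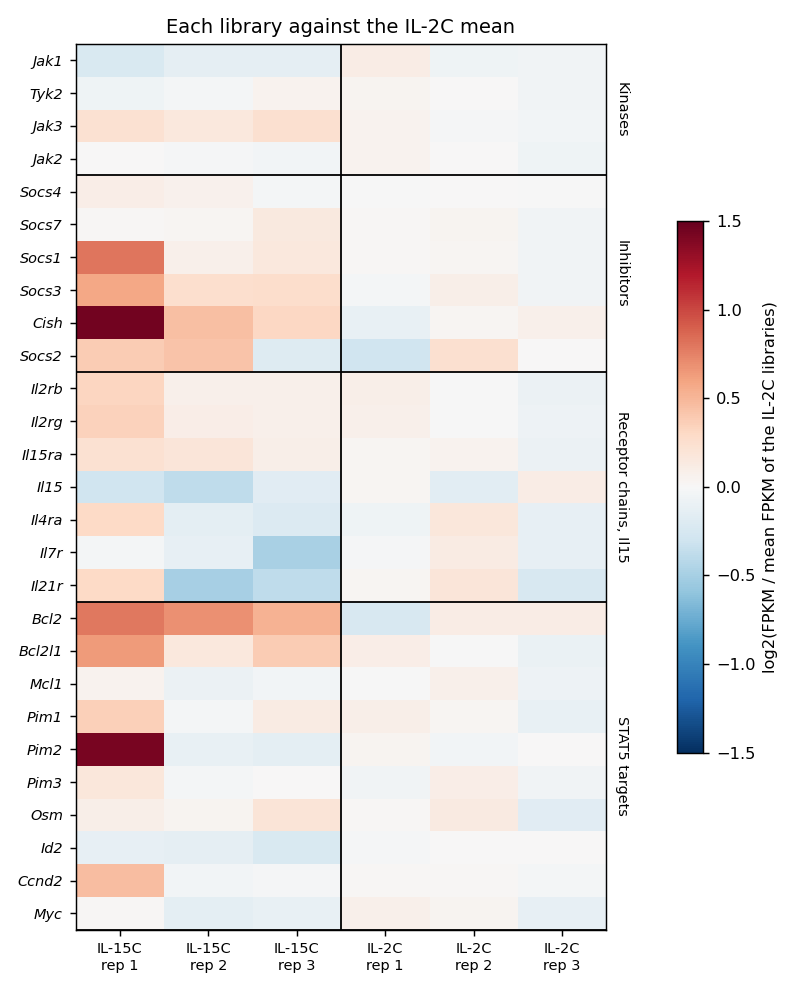
Each library (columns, IL-15C left) as log2 of FPKM over the mean of the IL-2C libraries, for the kinases, the inhibitors, the tested gamma-chain receptor genes with Il15, and the tested STAT5 target genes. Jak3 and Bcl2 are raised in all 3 IL-15C columns, and so are Cish, Socs1 and Socs3, among others. Cish, Socs1 and Pim2 are darkest in IL-15C replicate 1 (5.89, 11.7 and 49.3 FPKM). In the other IL-15C columns Cish had 2.96 and 2.68 FPKM, against an IL-2C mean of 2.16, whereas Pim2 had 17.1 and 16.7, against 18.4.

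The remaining genes of the pathway were described by lists. Of the 7 tested receptor and ligand genes of the gamma-chain family, 0 passed limma's test, and the median log2 change was -0.01. At an unadjusted p under 0.05 in limma, 2 of these 7 were higher (Il2rg and Il15ra) and 1 was lower (Il15), against 6.48% and 20.4% of all tested genes. The groups did not overlap in Il2rg and Il15ra, with IL-15C above (8.15% of the tested genes), nor in Il15, with IL-2C above (25.1%). Il2rb, the shared beta chain, had a mean of 682 ± 69.8 FPKM with IL-15C and 609 ± 36.6 with IL-2C, and Il2rg, the common gamma chain, one of 296 ± 31.4 with IL-15C and 262 ± 13.1 with IL-2C (SD, n = 3 each). Their log2 changes were 0.16 ± 0.08 and 0.17 ± 0.08. Leaving out IL-15C replicate 1 lowered these estimates to 0.077 for Il2rb and 0.088 for Il2rg. Jak3 per Il2rg, the kinase relative to the chain that carries it, was 0.190, 0.215 and 0.230 in IL-15C, against 0.203, 0.204 and 0.210 in IL-2C. The groups overlapped through IL-15C replicate 1 alone; the ratio of means was 1.03, and 1.08 without that library.

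Of 9 tested genes for other receptors that use Janus kinases, 1 was higher and 1 lower, against 1.72% and 4.72% of all tested genes. The median log2 change was 0.06. At an unadjusted p under 0.05 in limma, 1 was higher and 2 were lower, against 6.48% and 20.4% of all tested genes. Il12rb1, the IL-12 receptor chain that pairs with TYK2, had 22.4, 17.4 and 17.6 FPKM in IL-15C, against 15.3, 14.4 and 13.8 in IL-2C. It rose by 0.37 ± 0.09 (limma adjusted p = 0.0415). Ifnar2, the type I interferon receptor chain that carries JAK1, had 27.9, 27.4 and 27.5 FPKM in IL-15C, against 32.0, 32.3 and 32.1 in IL-2C, with little spread in either group. It fell by 0.21 ± 0.04 (limma adjusted p = 0.0191). When a library was left out, the call of Il12rb1 held in 1 of 6 fits, the one without IL-15C replicate 1, and that of Ifnar2 in 2 of 6, those without IL-15C replicate 1 or IL-2C replicate 3. The call of Il12rb1 was also lost in limma without the intensity trend (adjusted p = 0.0542) and with no filter (adjusted p = 0.281), and over all alternatives its adjusted p ran from 0.0102 to 0.281.

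None of the 7 STAT genes passed limma's test, and their median was -0.04. At an unadjusted p under 0.05, 2 of the 7 were lower, near the 20.4% of all tested genes that were. The most abundant were Stat4, at 106 ± 3.79 FPKM with IL-15C and 117 ± 4.05 with IL-2C, and Stat6, at 72.6 ± 2.56 with IL-15C and 75.0 ± 3.75 with IL-2C (SD, n = 3 each). Of 10 other inhibitors of the pathway 0 passed, with 2 at an unadjusted p under 0.05 (26.9% over all tested genes) and a median of 0.02. The phosphatase genes Ptprc (CD45) and Ptpn6 (SHP-1) led them at 800 ± 6.44 and 59.3 ± 5.51 FPKM in IL-15C, against 813 ± 33.2 and 55.6 ± 0.816 in IL-2C. Of 5 partners of the SOCS box ubiquitin ligase 0 passed, with 1 lower at an unadjusted p under 0.05 (20.4% over all tested genes) and a median of -0.03. Tceb2 (elongin B) and Nedd8 had log2 changes of 0.11 ± 0.08 and -0.03 ± 0.05, and that of Tceb2 was 0.033 without IL-15C replicate 1.

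Of 10 tested STAT5 target genes outside the SOCS family, 1 was higher and 0 were lower, against 1.72% and 4.72% of all tested genes. The median log2 change was 0.12. At an unadjusted p under 0.05 in limma, 2 were higher and 1 was lower, against 6.48% and 20.4% of all tested genes. The gene past the adjusted threshold was Bcl2, which blocks apoptosis. It had 20.4, 19.0 and 16.9 FPKM in IL-15C, against 9.96, 12.7 and 12.7 in IL-2C. The groups did not overlap, with IL-15C above, which held for 8.15% of the tested genes, and no IL-15C library stood apart from its group. Its log2 change of 0.63 ± 0.09 (limma adjusted p = 0.0123) stayed past the threshold in 5 of 6 fits that left out a library, the exception being the one without IL-2C replicate 2 (adjusted p = 0.0516). IL-2C replicate 1 was the lowest library, and without it the log2 change of Bcl2 was 0.52. With no filter the call of Bcl2 was lost (limma adjusted p = 0.162).

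**Figure D5:**
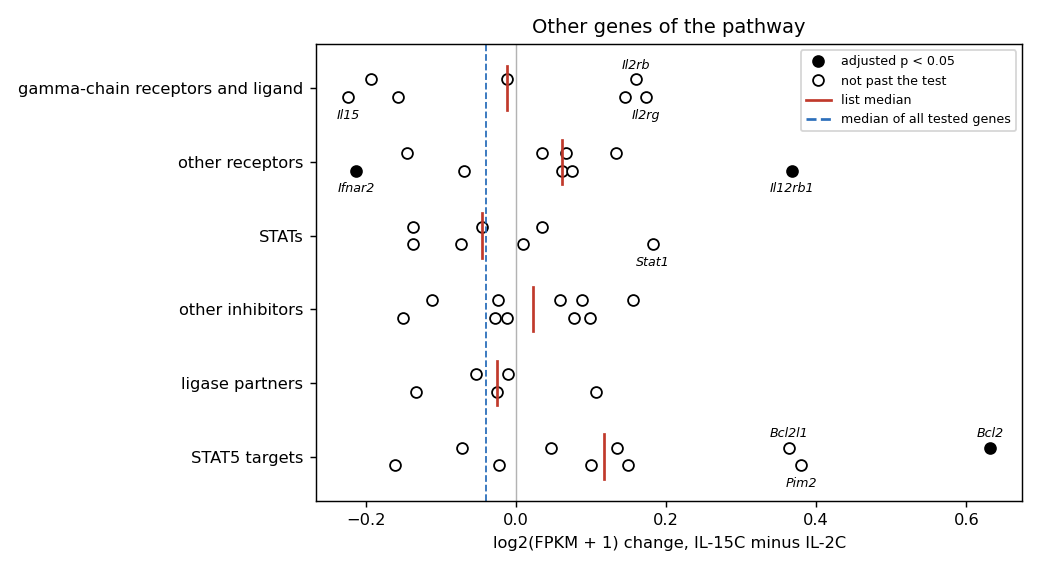
Log2(FPKM + 1) change, IL-15C minus IL-2C, of the tested genes in 6 lists of the pathway; filled circles passed limma's test, red lines are list medians and the dashed line is the median of all tested genes at -0.04. Il12rb1 and Bcl2 lie to the right at 0.37 and 0.63, Ifnar2 to the left at -0.21, and all other circles are open.

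The genes whose profile over the 6 libraries was nearest to that of Jak3 were Pygo2, a Wnt pathway cofactor gene, Amigo1, which encodes an adhesion molecule, and Agpat3, a lipid acyltransferase gene. Their root mean square differences from Jak3 were 0.02, 0.03 and 0.03 on the log2 scale, and 71 of 9830 genes lay within 0.05. Pygo2, the nearest, had 24.0, 22.4 and 24.2 FPKM in IL-15C, against 21.2, 20.8 and 19.8 in IL-2C. None of the 3 passed limma's test, with adjusted p of 0.0512, 0.0723 and 0.0531.

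The authors' deposited table of group values, which pools the libraries and was scaled separately, gave Cish 5.18 FPKM in IL-15C, with bounds of 4.08 and 6.27, and 2.84 in IL-2C, with bounds of 2.15 and 3.54. In the authors' deposited table Cish was the 1 gene of the 10 whose bounds did not overlap between the groups. The share of all genes with bounds apart was not computed, so this count has no background. The pooled value of Cish includes IL-15C replicate 1, without which the ratio of library means went from 1.78 to 1.31. For Jak3 the authors' deposited table gave 84.5 FPKM in IL-15C, with bounds of 71.8 and 97.1, and 70.8 in IL-2C, with bounds of 60.2 and 81.5.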

How the data were processed

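The submitters' processing notes name mm10, TopHat2 (2.0.13) and Cufflinks (2.2.1). Annotation and strand use are not given in the sources used here. Each library has its own table, in which the authors deposited FPKM with the bounds of each estimate; a further table holds group FPKM. Count models were not applied, because FPKM is a normalized unit.

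Where a symbol had several rows they were summed, and 10 genes with a failed estimate were dropped. The bounds were read as 2 SD of a Poisson count to give implied fragments, which cover counting error only. Implied fragments of single genes are printed only where they followed the level, whereas the library totals include all genes. limma 3.58.1 in R 4.3.3, with an intensity trend, was run on log2(FPKM + 1) for the 9831 genes with a mean of at least 1 FPKM, a scale that understates the change of low genes. P-values are two-sided with Benjamini-Hochberg adjustment at 0.05. They measure the spread between libraries, which may be technical, since no label says that these came from separate mice. Replicate numbers pair no samples by the labels. The test was checked on data simulated from its own model, which cannot show the effect of an outlying library or of library scaling.

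Named were all 10 members, the called genes of each pathway list (or its 2 most abundant), and the 3 profiles nearest to each called member. The members and lists were chosen with earlier results of these data known. Alternatives were other pseudocounts, filters, scalings and limma settings, a replicate block and leaving out each library. Tables were handled in Python 3.11.15 (pandas 2.3.3, numpy 2.4.6), permutation tests came from scipy 1.17.1 and plots from matplotlib 3.10.9.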

Additional observations from a re-analysis of the deposited data

How the results depend on the processing

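With a library left out, the number of called genes ran from 29 to 751, of kinases from 0 to 1, of inhibitors from 0 to 1 and of genes in the other pathway lists from 0 to 4. The log2 change of Jak3 then ran from 0.19 to 0.23, of Cish from 0.27 to 0.72, of Jak2 from -0.046 to 0.014, of Tyk2 from -0.043 to 0.013, of Nedd8 from -0.072 to 0.012 and of Pim2 from -0.12 to 0.64, and the ratio of means of Jak1 ran from 0.872 to 0.927 and of Jak2 from 0.967 to 1.01. With no filter, 29 genes were called in all, 0 kinases and 1 gene of the other lists, and Jak3 at 0.21 did not pass (limma adjusted p = 0.129). Array weights called 2107 genes, 1 inhibitor (Socs3 at 0.21) and 10 genes of the other lists. Quantile normalization called 2 kinases, with Jak1 at -0.16, 1 inhibitor, Socs3 at 0.35, and 6 genes of the other lists; scaling to a common median called 1 inhibitor, Socs3 at 0.34. The cause was not tested.

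Changes near 0 turned sign: Jak2 was 0.030, 0.0015 and 0.015 and Tyk2 was 0.033, 0.0037 and 0.0082 after median scaling, rescaling to TPM and quantile normalization. Stat6, Ptprc and Nedd8 were 0.00019, 0.022 and 0.019 after median scaling, Ptprc was 0.014 with array weights, Nedd8 was 0.012 without IL-15C replicate 3, and Pim2 was -0.12 without IL-15C replicate 1. In the authors' deposited group values the ratio was 1.02 for Jak2 and 1.19 for Jak3. Samples with the same replicate number did not deviate together (correlations of -0.03, -0.16 and -0.02), and with a replicate block 517 genes were called and Jak3 stayed past the threshold (limma adjusted p = 0.0402); no other member gained or lost a call.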
